A study of Mus musculus with 12 samples.

Results

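The 33 genes described here encode the glycolytic enzymes, the transporters and regulators that feed and drain glycolysis, the hypoxia factor Hif1a with its prolyl hydroxylases, and targets of that factor outside glycolysis. They were taken by symbol from a list that used no measured value as a criterion but was drawn up with earlier results of these data known. Each symbol matched 1 of the 37991 genes of the count table, and all 33 passed the filter on low counts, as did 18981 genes in all. By role they were 16 glycolytic enzymes, 6 transporters and regulators, 3 genes of the hypoxia factor and its prolyl hydroxylases, and 8 hypoxia-factor targets outside glycolysis. RNA was sequenced from bone-marrow-derived dendritic cells (BMDCs), phagocytes grown in culture from mouse marrow progenitors. All mice were of the C57BL/6 strain. One genotype was labelled as lacking Vav1, Vav2 and Vav3 (KO), signalling proteins that act below Syk-coupled receptors, and the other was wild type (WT). Curdlan, a particulate beta-glucan recognised by the receptor Dectin-1, was given for 3 hours. There were 3 libraries in each of 4 groups: KO-labelled cells with curdlan (numbers 2, 4 and 5), KO-labelled cells left unstimulated (1, 2 and 5), WT cells with curdlan (1, 2 and 4) and unstimulated WT cells (1, 2 and 4). The labels do not say whether the libraries of a group came from separate mice, so the p-values measure the spread between these libraries.

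Glycolysis turns glucose into pyruvate and lactate in the cytosol and yields ATP without oxygen. The hypoxia-inducible factor Hif1a is made constantly, is marked for destruction by the prolyl hydroxylases Egln1 and Egln3 while oxygen is present, and otherwise switches on genes of glucose uptake, glycolysis and adaptation to low oxygen, among them those of its own hydroxylases. Dendritic cells given microbial ligands are known to raise glycolysis within hours. The comparisons asked how curdlan moved these transcripts in cells of either genotype, whether both genotypes responded alike, and how KO-labelled and WT cells differed before and after curdlan.

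Library totals ran from 41421718 to 61217861 counts, so the members were counted deeply, and replicate spread rather than counting noise set the precision. The targeted genes did not verify the genotype labels. Vav2 was higher in KO-labelled than in WT libraries, by 2.05 on the log2 scale with curdlan and by 2.07 without it. Vav1 was also higher, by 0.63 with curdlan and 0.67 without it, and Vav3 was at -0.19 with curdlan (adjusted p = 0.315) and higher by 0.48 without it (adjusted p = 0.0225, edgeR), a call lost without any 1 of 3 libraries, and no KO-labelled library lacked reads of Vav1, Vav2 or Vav3. Counts over whole genes cannot show the loss of single exons, and the direction of every genotype comparison rests on the labels alone. Each group was sequenced on 1 lane of its own, so lane and group cannot be told apart. Marker genes of other cell types also moved with genotype. The summed level of 10 mast cell and basophil markers was 454 to 613 CPM (counts scaled to a common library total) with curdlan and 286 to 443 CPM without it in KO-labelled libraries, against 76.6 to 102 CPM and 63.8 to 72.9 CPM in WT libraries; Mcpt4 was at 0 throughout. Summed neutrophil markers were 6104 to 9571 CPM with curdlan and 6566 to 10334 CPM without it in KO-labelled libraries, against 3956 to 4640 CPM and 4627 to 5874 CPM in WT libraries. Summed B cell markers ran the other way, at 26.5 to 45.3 CPM over the KO-labelled libraries and 614 to 883 CPM over the WT libraries. Summed markers of macrophages and monocytes were 16118 to 18840 CPM with curdlan and 16192 to 20374 CPM without it in KO-labelled libraries, against 12820 to 14055 CPM and 13787 to 14600 CPM in WT libraries. The summed level of 10 dendritic cell markers was also higher, at 15992 to 21302 CPM with curdlan and 15321 to 19161 CPM without it in KO-labelled libraries, against 9718 to 10128 CPM and 9502 to 9762 CPM in WT libraries. Of these 10 markers, 5 were higher and 4 lower in KO-labelled cells with curdlan, and 5 were higher and 2 lower without it. Itgax, the dendritic cell integrin, averaged 945 and 788 CPM in KO-labelled cells with and without curdlan, and 1336 and 1488 CPM in WT cells. Flt3, another dendritic cell marker, was near 2 CPM in every group. In bulk RNA a different share of cells of a type and a different amount of RNA per cell cannot be told apart, and the part of these cells in the results on genotype was not tested.

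Set per kilobase of merged exons, and counting only reads assigned to the genes themselves, Aldoa, Pkm and Ldha were the most abundant members. Merged exons take in those of all annotated transcripts of a gene, used here or not, so ranks and shares per kilobase depend on the annotation. With the reads of near-identical copies added, Gapdh was at rank 1 in all 4 groups. Aldoa, the aldolase that splits the sugar bisphosphate, stood at 348 ± 10.4 and 380.4 ± 18.6 CPM per kilobase in KO-labelled cells with and without curdlan, and at 438 ± 7.34 and 455 ± 15.5 in WT cells (mean ± SD, n = 3 each). Pkm, pyruvate kinase, stood at 366 ± 11.7 and 353 ± 25.1 CPM per kilobase in KO-labelled cells and at 397 ± 15.7 and 328 ± 18.9 in WT cells. Together with Ldha, the lactate dehydrogenase subunit, they held ranks 1 to 3 among the 33 members in each of the 4 groups, with Pkm ahead of Aldoa in treated KO-labelled cells only. The lowest members were P4ha2, a collagen prolyl hydroxylase subunit at 0.366 to 1.97 CPM per kilobase by group mean, and Pfkm, the muscle form of phosphofructokinase at 1.62 to 2.20. Some members changed rank between the groups. Slc2a1, the glucose transporter GLUT1, was at rank 6 and rank 7 in KO-labelled cells with and without curdlan, against rank 6 and rank 11 in WT cells. Ero1l, an oxidoreductase of the endoplasmic reticulum that forms disulfide bonds, was at rank 7 and rank 6 in KO-labelled cells and at rank 8 and rank 12 in WT cells.

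In WT cells curdlan raised a larger share of these genes, 51.5%, than of all genes tested. In KO-labelled cells the share raised, 12.1%, was near that of all genes tested. In KO-labelled cells 4 of the 33 members were higher with curdlan and 0 were lower, where 14.0% of all genes tested were higher and 14.6% were lower. In WT cells 17 of 33 were higher and 0 were lower, where 11.4% of all genes tested were higher and 8.40% were lower. Calls are adjusted p under 0.05 (edgeR quasi-likelihood test, Benjamini-Hochberg over all 18981 genes), from 1 fit of the 12 libraries; at an unadjusted p under 0.05 it gave 6 higher and 2 lower in KO-labelled cells and 21 higher and 0 lower in WT cells. DESeq2 gave 4 higher and 0 lower in KO-labelled cells and 19 higher and 0 lower in WT cells. The median log2 fold change of the members was -0.004 in KO-labelled cells (all genes, -0.001) and 0.41 in WT cells (all genes, -0.034). The response itself differed for 11 members, each of them smaller in KO-labelled cells, and was larger there for 0 (0 also at an unadjusted p under 0.05 and by DESeq2); of all genes tested, 3.60% had a lower and 1.61% a higher response in KO-labelled cells. The count of 11 was 5 without KO-labelled unstimulated library 1 or WT unstimulated library 1 or 2, and 7 without KO-labelled unstimulated library 5, WT curdlan library 2 or 4 or WT unstimulated library 4. In KO-labelled cells the count of lower members was 1 without KO-labelled curdlan library 5 and 2 without KO-labelled unstimulated library 2. Scaled by library size alone, the median of all genes shifted by -0.198 in KO-labelled cells and by -0.133 in WT cells, and the members' counts became 3 higher and 10 lower in KO-labelled cells and 13 higher and 1 lower in WT cells. Over all genes, higher calls were 49.0% of the calls in KO-labelled cells and 57.6% in WT cells, and with library size alone 17.9% and 25.1%.

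Same-numbered libraries of a genotype deviated together, though in KO-labelled cells some differently numbered libraries did so nearly as much as those numbered 2. With that number as a replicate block 6 members were higher and 3 lower in KO-labelled cells, 26 were higher in WT cells and 17 had a smaller response in KO-labelled cells. The 9 members added in WT cells by the block were Gpi1, Tpi1, Gapdh, Pgk1, Ldha, Pdk1, Hif1a, Ndrg1 and Mif, with blocked log2 fold changes of 0.15 to 0.53. The 6 added to the smaller responses were Gpi1, Tpi1, Pgam1, Pdk1, Bnip3 and Ankrd37, with blocked differences of -0.77 to -0.27. In KO-labelled cells the block added Hif1a (0.34) and Ndrg1 (0.57) to the higher members and made Pfkfb4 (-0.28), Pdk1 (-0.20) and Bnip3 (-0.25) lower ones. KO-labelled unstimulated library 1 and curdlan library 4 had no same-numbered partner, so these blocked changes rest on the libraries numbered 2 and 5. The blocked differences between the responses take their KO-labelled part from the same libraries.

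**Figure D1:**
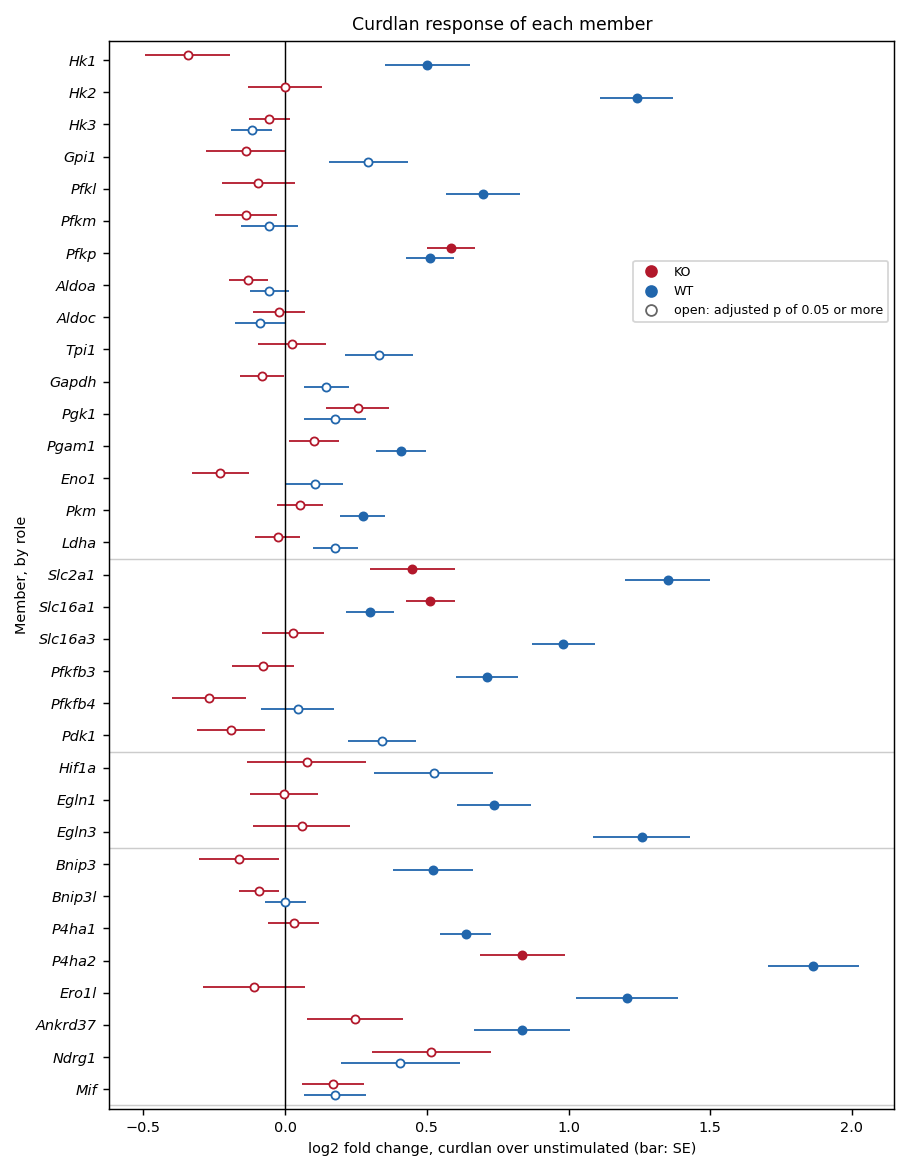
Log2 fold change of each member, curdlan over unstimulated, with its standard error, in KO-labelled cells (red) and WT cells (blue), grouped by role from top to bottom: enzymes, transporters and regulators, hypoxia factor with hydroxylases, other targets. Filled points passed the adjusted p threshold: 4 in KO-labelled cells and 17 in WT cells, among them Hk2, at -0.001 in KO-labelled and 1.24 in WT cells.

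The transcript of the glucose transporter Slc2a1 rose in both genotypes, at different size. Of the other glucose transporters, Slc2a3 fell with curdlan in KO-labelled cells and Slc2a6 rose in both genotypes, as given below. Slc2a1 had 821, 755 and 1049.7 CPM in the curdlan-treated and 691, 484 and 748 CPM in the unstimulated KO-labelled libraries. In WT libraries it had 989, 930.2 and 1062 CPM with curdlan and 396, 393 and 380.1 CPM without. The treated and unstimulated libraries did not overlap in either genotype, and the lowest KO-labelled library without curdlan, number 2, still lay above every unstimulated WT library. The change was 0.45 (SE 0.15, adjusted p = 0.0424) in KO-labelled cells and 1.35 (SE 0.15, adjusted p = 8.13e-05) in WT cells, in log2 units. The KO-labelled change lost its call when any 1 of 9 libraries was left out, with values of 0.28 to 0.57 and adjusted p up to 0.175, highest without KO-labelled curdlan library 5. The difference between the responses was -0.90 (SE 0.21, adjusted p = 0.0327); leaving out any 1 of 9 libraries raised its adjusted p above the threshold, to at most 0.0869, with values of -1.09 to -0.78.

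Among the hexokinases, which trap glucose in the cell as its phosphate, Hk2 had the largest response in WT cells, and no hexokinase passed the test in KO-labelled cells. Hk2 had 700.1, 527 and 575 CPM in the curdlan-treated and 682, 509 and 611 CPM in the unstimulated KO-labelled libraries. In WT libraries it had 555, 583 and 600.1 CPM with curdlan and 216, 256 and 264 CPM without. Both KO-labelled groups and the treated WT group occupied the same range, and the 3 unstimulated WT libraries lay apart below it. Hk2 changed by -0.001 (SE 0.13, adjusted p = 1) in KO-labelled cells and by 1.24 (SE 0.13, adjusted p = 3.83e-05) in WT cells, and the difference of -1.24 (SE 0.18, adjusted p = 0.00517) kept its call whichever library was left out. Hk1, the housekeeping hexokinase, averaged 113 ± 15.8 and 144 ± 29.3 CPM in KO-labelled cells with and without curdlan, and 161 ± 12.7 and 114 ± 11.4 CPM in WT cells. Its log2 fold change was -0.34 (SE 0.15, adjusted p = 0.0971) in KO-labelled cells and 0.50 (SE 0.15, adjusted p = 0.0293) in WT cells, and the difference was -0.85 (SE 0.21, adjusted p = 0.0371). The Hk1 difference lost its call without any 1 of 8 libraries, with an adjusted p of up to 0.105, and its WT change without any 1 of 4. Hk3, the myeloid-enriched hexokinase, averaged 133 ± 2.09 and 139 ± 11.5 CPM in KO-labelled cells and 125 ± 2.05 and 136 ± 8.56 CPM in WT cells, with log2 fold changes of -0.055 (SE 0.072, adjusted p = 0.607) and -0.12 (SE 0.072, adjusted p = 0.275).

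Phosphofructokinase commits sugar to glycolysis, and its 3 genes behaved differently. Pfkl, the liver form, averaged 248 ± 30.8 and 265 ± 47.7 CPM in KO-labelled cells with and without curdlan, and 269 ± 22.8 and 166 ± 6.22 CPM in WT cells. It rose in WT cells, by 0.70 (SE 0.13, adjusted p = 0.00227), and was at -0.094 (SE 0.13, adjusted p = 0.623) in KO-labelled cells. The difference was -0.79 (SE 0.18, adjusted p = 0.0276) and was lost without any 1 of 7 libraries, with adjusted p up to 0.077. Pfkp, the platelet form, had 1019, 909 and 900.4 CPM in treated and 659.8, 631 and 594 CPM in unstimulated KO-labelled libraries. In WT libraries Pfkp had 747, 808 and 868 CPM with curdlan and 534, 602 and 566 CPM without. It was the 1 enzyme called in both genotypes, at 0.59 (SE 0.085, adjusted p = 0.000376) in KO-labelled and 0.51 (SE 0.085, adjusted p = 0.00118) in WT cells, and the difference between the responses was 0.076 (SE 0.12, adjusted p = 0.741). Pfkfb3 and Pfkfb4 make and remove the sugar bisphosphate that activates phosphofructokinase. Pfkfb3 averaged 164 ± 19.4 and 173 ± 20.2 CPM in KO-labelled cells with and without curdlan, and 144 ± 4.74 and 87.8 ± 10.2 CPM in WT cells. Its change was -0.077 (SE 0.11, adjusted p = 0.643) in KO-labelled cells and 0.71 (SE 0.11, adjusted p = 0.000736) in WT cells, with a difference of -0.79 (SE 0.16, adjusted p = 0.0155) that held without any 1 library. Pfkfb4 was at -0.27 in KO-labelled cells and 0.044 in WT cells, with no call in either.

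The enzymes below phosphofructokinase moved little. Of the 16 enzymes, 1 rose in KO-labelled cells (Pfkp) and 6 rose in WT cells (Hk1, Hk2, Pfkl, Pfkp, Pgam1 and Pkm). Pgam1, phosphoglycerate mutase, changed by 0.10 (SE 0.088, adjusted p = 0.426) in KO-labelled cells and by 0.41 (SE 0.088, adjusted p = 0.0065) in WT cells. Pkm changed by 0.053 (SE 0.08, adjusted p = 0.664) in KO-labelled cells and by 0.27 (SE 0.08, adjusted p = 0.0301) in WT cells; the WT call was lost without any 1 of 4 libraries. Aldoa, Aldoc, Gapdh, Pgk1, Eno1 and Ldha had log2 fold changes of -0.23 (Eno1) to 0.26 (Pgk1) in KO-labelled cells and -0.088 (Aldoc) to 0.18 (Ldha) in WT cells, none with a call. Tpi1, triose phosphate isomerase, was at 0.026 and 0.33, and Gpi1, glucose phosphate isomerase, at -0.14 and 0.29, in KO-labelled and WT cells in that order. Pfkm was at -0.14 in KO-labelled and -0.055 in WT cells.

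Lactate leaves or enters the cell through monocarboxylate transporters, of which 2 were members and responded in different ways. Slc16a3, the exporter MCT4, had 391, 385 and 458 CPM in treated and 426, 335 and 448 CPM in unstimulated KO-labelled libraries. In WT libraries it had 447, 465 and 531 CPM with curdlan and 239.6, 246 and 244 CPM without. The unstimulated WT libraries formed the low group, and the treated and unstimulated KO-labelled libraries overlapped. The log2 fold change was 0.029 (SE 0.11, adjusted p = 0.879) in KO-labelled cells and 0.98 (SE 0.11, adjusted p = 8.13e-05) in WT cells, and the difference of -0.95 (SE 0.16, adjusted p = 0.00832) held without any 1 library. Slc16a1, the transporter MCT1, averaged 60.0 ± 6.36 and 42.0 ± 1.81 CPM in KO-labelled cells with and without curdlan, and 61.5 ± 3.03 and 50.0 ± 3.54 CPM in WT cells. It rose by 0.51 (SE 0.085, adjusted p = 0.000957) in KO-labelled cells and by 0.30 (SE 0.085, adjusted p = 0.0261) in WT cells, where the call was lost without any 1 of 4 libraries. The difference between the Slc16a1 responses was 0.21 (SE 0.12, adjusted p = 0.282). Pdk1, the kinase that keeps pyruvate out of the citric acid cycle, was at -0.19 (SE 0.12, adjusted p = 0.271) in KO-labelled and 0.34 (SE 0.12, adjusted p = 0.0654) in WT cells.

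**Figure D2:**
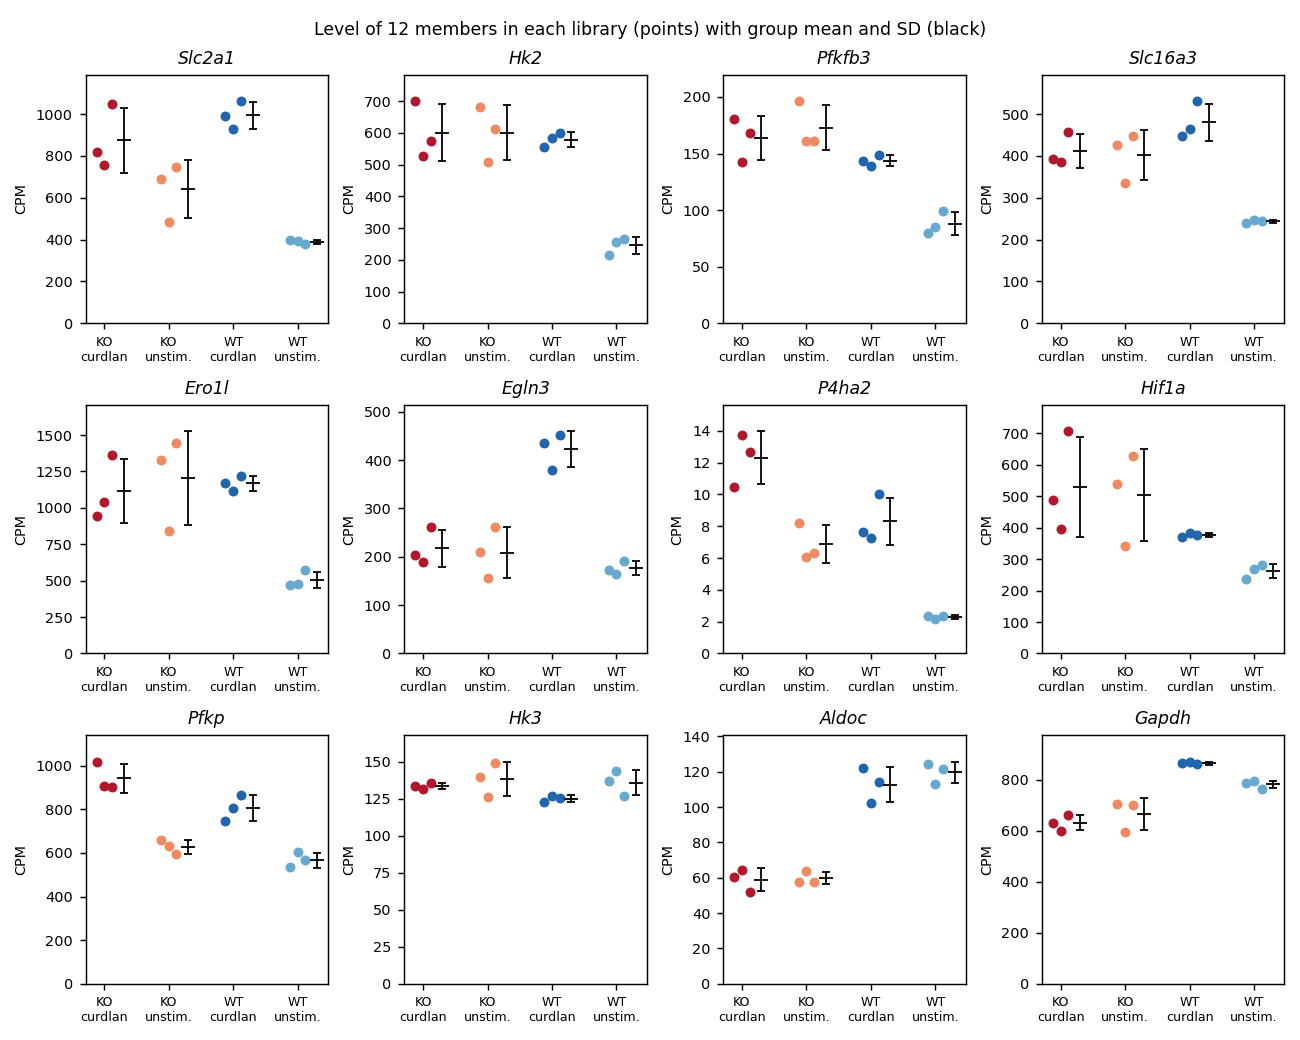
Level of 12 members in CPM in each library (points), with the group mean and SD (black), for KO-labelled cells with curdlan, KO-labelled unstimulated, WT with curdlan and WT unstimulated, from left to right in each panel. For Slc2a1, Hk2, Pfkfb3, Slc16a3, Ero1l, P4ha2 and Hif1a the unstimulated WT libraries were the lowest of the 12; for Aldoc both KO-labelled groups, at 58.9 and 59.8 CPM on average, lay below both WT groups, at 113 and 119.8 CPM.

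The 2 prolyl hydroxylases, which are themselves known targets of the hypoxia factor, rose in WT cells. Egln3 had 203, 188 and 261 CPM in treated and 209.6, 156 and 261 CPM in unstimulated KO-labelled libraries. In WT libraries Egln3 had 435, 379.9 and 451 CPM with curdlan and 173, 164 and 192 CPM without. The treated WT libraries stood above all others and the remaining 3 groups overlapped. The log2 fold change was 0.058 (SE 0.17, adjusted p = 0.833) in KO-labelled cells and 1.26 (SE 0.17, adjusted p = 0.000268) in WT cells, and the difference was -1.20 (SE 0.24, adjusted p = 0.0155). Egln1 averaged 108 ± 17.6 and 108 ± 16.6 CPM in KO-labelled cells with and without curdlan, and 137 ± 7.34 and 82.5 ± 4.27 CPM in WT cells. It changed by -0.004 (SE 0.12, adjusted p = 0.994) in KO-labelled cells and by 0.74 (SE 0.13, adjusted p = 0.0014) in WT cells, and the difference of -0.74 (SE 0.18, adjusted p = 0.0341) was lost without any 1 of 9 libraries, with adjusted p up to 0.0855. Hif1a had 487, 398 and 707 CPM in treated and 539, 342 and 628 CPM in unstimulated KO-labelled libraries. In WT libraries Hif1a had 371, 384 and 378 CPM with curdlan and 237, 269 and 280.4 CPM without. The KO-labelled libraries spread widely in both states, with number 5 highest, and the WT groups did not overlap. Hif1a was at 0.077 (SE 0.21, adjusted p = 0.827) in KO-labelled cells and 0.53 (SE 0.21, adjusted p = 0.106) in WT cells, without a call in either.

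Of the 8 targets outside glycolysis, 1 rose in KO-labelled cells (P4ha2) and 5 rose in WT cells (Bnip3, P4ha1, P4ha2, Ero1l and Ankrd37). Ero1l had 944, 1040.5 and 1362 CPM in treated and 1332, 839.5 and 1443 CPM in unstimulated KO-labelled libraries. In WT libraries Ero1l had 1170.1, 1119 and 1220.2 CPM with curdlan and 472, 476 and 571 CPM without. Every unstimulated WT library lay below all others, and KO-labelled library 2 was the lowest of its genotype in both states. Ero1l changed by -0.11 (SE 0.18, adjusted p = 0.691) in KO-labelled cells and by 1.21 (SE 0.18, adjusted p = 0.000678) in WT cells, a difference of -1.32 (SE 0.26, adjusted p = 0.0154) that held without any 1 library. P4ha2 had 10.5, 13.8 and 12.7 CPM in treated and 8.23, 6.07 and 6.34 CPM in unstimulated KO-labelled libraries. In WT libraries P4ha2 had 7.65, 7.28 and 10.0 CPM with curdlan and 2.35, 2.15 and 2.35 CPM without. The states separated in both genotypes, and P4ha2 was the low-count member with the largest WT rise. It rose by 0.84 (SE 0.15, adjusted p = 0.00157) in KO-labelled cells and by 1.86 (SE 0.16, adjusted p = 9.78e-06) in WT cells, with a difference of -1.03 (SE 0.22, adjusted p = 0.0211). P4ha1, another form of the collagen hydroxylase subunit, was at 0.031 (SE 0.09, adjusted p = 0.835) in KO-labelled and 0.64 (SE 0.09, adjusted p = 0.000409) in WT cells, with a difference of -0.61 (SE 0.13, adjusted p = 0.0202). The P4ha1 and P4ha2 differences lost their calls without KO-labelled unstimulated library 1 or WT unstimulated library 1 or 2, at adjusted p of up to 0.0575.

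Bnip3 and Bnip3l encode mitochondrial receptors for mitophagy. Bnip3 averaged 111 ± 19.7 and 124 ± 14.9 CPM in KO-labelled cells with and without curdlan, and 150.3 ± 17.5 and 105 ± 12.7 CPM in WT cells. Its log2 fold change was -0.16 (SE 0.14, adjusted p = 0.427) in KO-labelled cells and 0.52 (SE 0.14, adjusted p = 0.0214) in WT cells, and the WT call was lost without any 1 of 3 libraries. Bnip3l was at -0.092 in KO-labelled and 0.001 in WT cells, with no call. Ankrd37, an ankyrin-repeat protein, was at 0.25 (SE 0.17, adjusted p = 0.304) in KO-labelled cells and 0.84 (SE 0.17, adjusted p = 0.00408) in WT cells. Ndrg1, a stress-induced gene, was at 0.52 (SE 0.21, adjusted p = 0.0885) and 0.41 (SE 0.21, adjusted p = 0.2), and the cytokine Mif at 0.17 (SE 0.11, adjusted p = 0.283) and 0.18 (SE 0.11, adjusted p = 0.287), in KO-labelled and WT cells in that order.

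Promoters of some members that rose with curdlan in WT cells, and of Hk3, which had no call, are shown. Marked in them are the 5-base cores that the hypoxia factor is known to bind. The windows are those of RefSeq on GRCm38.p6, each running from upstream of a gene's start to shortly past it, and 30 of 33 members had one (not Bnip3l, Ero1l and Ndrg1). Capitals mark ACGTG or GCGTG on either strand, so that CACGT and CACGC on the printed strand also count; a CACGTG holds ACGTG on both strands and counts for each. The sequences are the glucose transporter, the responding hexokinase, the hexokinase without a call, the prolyl hydroxylase that stood highest in treated WT cells, and the collagen hydroxylase subunit with the largest WT rise, printed 5′ to 3′ on the gene's strand.
Slc2a1 (chr4:119108495-119108794, plus strand): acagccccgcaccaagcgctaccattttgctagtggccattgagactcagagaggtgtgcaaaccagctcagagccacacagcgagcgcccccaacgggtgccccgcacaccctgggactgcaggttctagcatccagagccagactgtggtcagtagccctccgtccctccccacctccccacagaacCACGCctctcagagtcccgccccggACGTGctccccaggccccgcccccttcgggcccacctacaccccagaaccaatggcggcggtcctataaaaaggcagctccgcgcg
Hk2 (chr6:82774405-82774704, minus strand): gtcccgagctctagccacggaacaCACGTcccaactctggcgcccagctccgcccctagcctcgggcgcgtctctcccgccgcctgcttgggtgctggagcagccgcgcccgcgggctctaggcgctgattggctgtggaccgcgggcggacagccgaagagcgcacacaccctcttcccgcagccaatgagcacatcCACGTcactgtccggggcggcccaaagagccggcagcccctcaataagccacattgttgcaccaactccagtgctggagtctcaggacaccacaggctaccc
Hk3 (chr13:55021336-55021635, minus strand): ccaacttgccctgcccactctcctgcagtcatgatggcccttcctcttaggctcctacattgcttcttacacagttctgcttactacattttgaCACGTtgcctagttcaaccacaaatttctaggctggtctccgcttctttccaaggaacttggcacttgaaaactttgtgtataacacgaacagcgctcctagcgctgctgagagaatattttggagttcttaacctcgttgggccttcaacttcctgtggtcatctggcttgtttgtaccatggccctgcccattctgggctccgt
Egln3 (chr12:54203825-54204124, minus strand): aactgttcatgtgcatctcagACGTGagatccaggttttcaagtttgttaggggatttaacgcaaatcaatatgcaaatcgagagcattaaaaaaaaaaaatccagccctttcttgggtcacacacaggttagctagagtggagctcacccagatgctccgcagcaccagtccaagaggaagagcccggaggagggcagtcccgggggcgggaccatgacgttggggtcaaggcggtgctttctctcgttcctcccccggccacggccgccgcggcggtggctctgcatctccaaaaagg
P4ha2 (chr11:54100674-54100973, plus strand): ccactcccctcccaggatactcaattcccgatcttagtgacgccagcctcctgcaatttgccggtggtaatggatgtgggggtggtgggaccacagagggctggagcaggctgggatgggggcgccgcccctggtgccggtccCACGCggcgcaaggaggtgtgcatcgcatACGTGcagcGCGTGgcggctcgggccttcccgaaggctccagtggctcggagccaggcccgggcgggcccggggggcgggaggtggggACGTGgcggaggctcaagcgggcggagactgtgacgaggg
P4ha2 held 4 matches, Hk2 and Slc2a1 held 2 each, and Egln3 and Hk3 held 1 each. These windows were chosen by the responses of their genes, and Hk3 alone had no call. The counts therefore cannot tell whether cores go with the response. At least 1 core stood in a window of 28 of the 30 members (all but Gpi1 and Tpi1), with ACGTG in 23 and GCGTG in 19. Among 27025 genes with windows the shares were 46.7% for either core, 21.8% for ACGTG and 35.2% for GCGTG, and among the 11053 of them tested here 64.2%, 27.8% and 52.8%. Of the 30 members 9 had several windows, which gives more room for a match. A match describes the letters and is not evidence of binding.

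Without curdlan, the hexokinase Hk2, the transporters Slc2a1 and Slc16a3 and several hypoxia-factor targets were higher in KO-labelled cells, while several lower-pathway enzymes were lower. In unstimulated cells 10 members were higher in KO-labelled than in WT libraries and 7 were lower, where 21.1% of all genes tested were higher and 23.3% were lower. The share of members lower was near that background. These libraries also enter the response comparisons, since the unstimulated groups are their baseline, so the values are not independent of them. The higher members were Hk2, Pfkl, Slc2a1, Slc16a3, Pfkfb3, Hif1a, Egln1, P4ha1, P4ha2 and Ero1l. P4ha2 differed most, by 1.59 (SE 0.16, adjusted p = 8.11e-06), followed by Hk2 at 1.29 (SE 0.13, adjusted p = 6.77e-06) and Ero1l at 1.25 (SE 0.18, adjusted p = 0.00016). Pfkfb3 was higher by 0.98 (SE 0.11, adjusted p = 1.98e-05) and Hif1a by 0.94 (SE 0.22, adjusted p = 0.00358). For each of these 5 genes all 3 unstimulated KO-labelled libraries lay above all 3 unstimulated WT libraries. P4ha1 was higher by 0.80, Slc16a3 by 0.73, Slc2a1 by 0.72, Pfkl by 0.68 and Egln1 by 0.39, again without overlap of the groups; the Egln1 call was lost without any 1 of 3 libraries, with adjusted p up to 0.0926.

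The 7 members lower in unstimulated KO-labelled cells were Pfkm, Aldoa, Aldoc, Gapdh, Eno1, Slc16a1 and Bnip3l. Aldoc, the aldolase form known from brain, had 60.2, 64.5 and 52.0 CPM in treated KO-labelled and 122, 102 and 114 CPM in treated WT libraries. Without curdlan it had 57.8, 64.0 and 57.7 CPM in KO-labelled and 125, 113 and 122 CPM in WT libraries. The genotypes did not overlap in either state, and the difference was -0.94 (SE 0.092, adjusted p = 6.55e-06) with and -1.002 (SE 0.092, adjusted p = 3.76e-06) without curdlan. The other 6 differences were small, from -0.30 (Pfkm) to -0.23 (Gapdh). Of these calls Pfkm, Gapdh and Slc16a1 were each lost without any 1 of 4 libraries and Eno1 without any 1 of 8, and the count of lower members was 3 without KO-labelled unstimulated library 2 and 4 without KO-labelled curdlan library 5 or any 1 WT unstimulated library. Scaled by library size alone, which shifted the median of all genes by -0.181, the counts were 9 higher and 11 lower, and higher calls made up 26.4% of all calls over all genes, against 47.5% with the scaling used throughout. The summed mast cell, neutrophil and B cell markers given above moved with the same contrast, and their part in these differences was not tested.

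**Figure D3:**
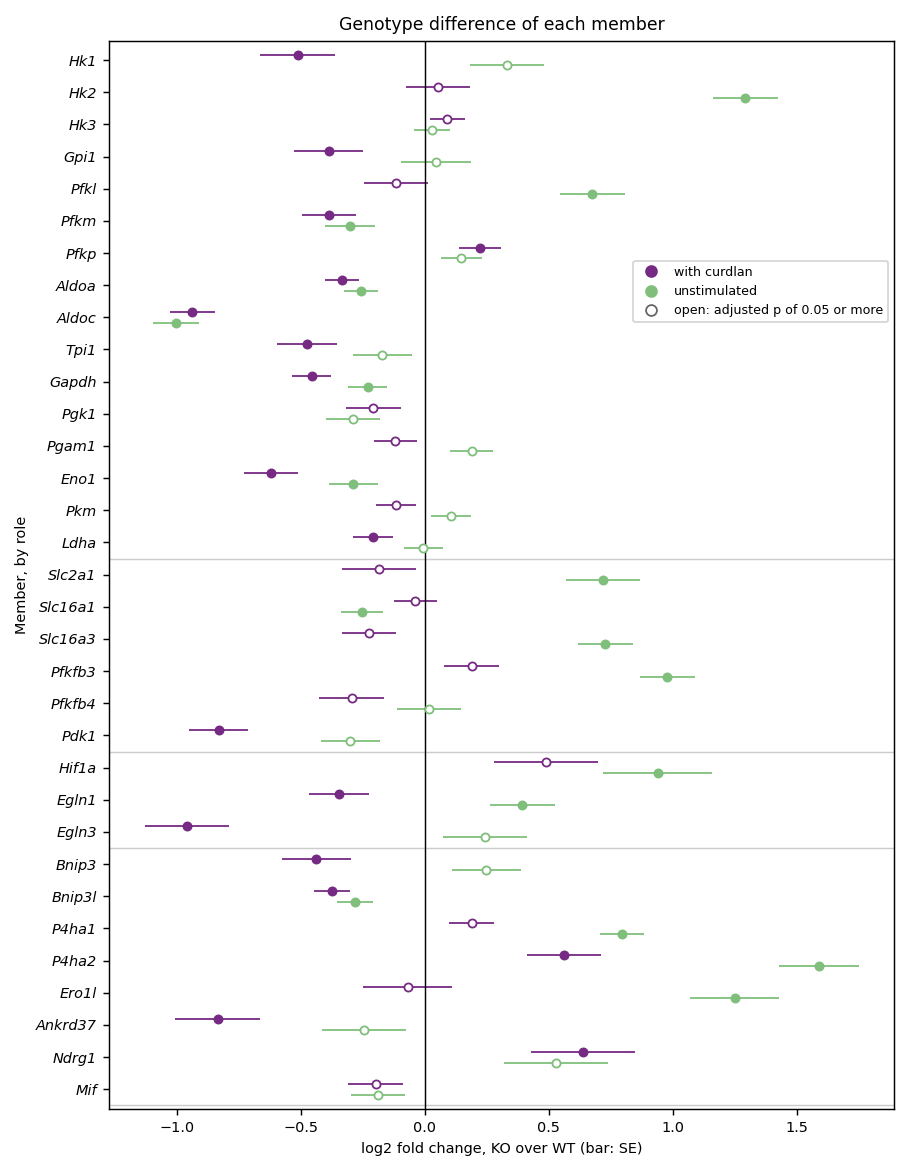
Log2 fold change of each member, KO-labelled over WT, with its standard error, with curdlan (purple) and unstimulated (green), grouped by role from top to bottom as enzymes, transporters and regulators, hypoxia factor with hydroxylases, and other targets. Filled points passed the adjusted p threshold; Aldoc lies near -1 in both states, whereas Hk2 is at 0.053 with curdlan and at 1.29 without.

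With curdlan, the balance lay on the lower side. In treated cells 3 members were higher in KO-labelled than in WT libraries and 15 were lower, where 24.7% of all genes tested were higher and 26.8% were lower. By role, 9 of 16 enzymes, 1 of 6 transporters and regulators, 2 of 3 hypoxia factor genes and 3 of 8 other targets were lower. The lower enzymes were Hk1, Gpi1, Pfkm, Aldoa, Aldoc, Tpi1, Gapdh, Eno1 and Ldha. Eno1, the enolase, averaged 675 ± 64.0 CPM in treated KO-labelled and 1037 ± 28.0 CPM in treated WT cells, a difference of -0.62 (SE 0.11, adjusted p = 0.000404). Hk1 stood at -0.51 (SE 0.15, adjusted p = 0.0109), Tpi1 at -0.47 (SE 0.12, adjusted p = 0.00673) and Gapdh at -0.46 (SE 0.078, adjusted p = 0.00041), in log2 units. Pdk1 had 37.3, 43.7 and 49.7 CPM in treated KO-labelled and 76.5, 74.0 and 81.7 CPM in treated WT libraries. No Pdk1 value of one genotype reached the other, and the difference was -0.83 (SE 0.12, adjusted p = 0.000138). Egln3 stood at -0.96 (SE 0.17, adjusted p = 0.000497) and Ankrd37 at -0.83 (SE 0.17, adjusted p = 0.00132). Bnip3 was at -0.44, Bnip3l at -0.37 and Egln1 at -0.34. The calls of Ldha, Gpi1, Egln1 and Bnip3 were lost without any 1 of 8, 4, 4 and 2 libraries.

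The 3 members higher in treated KO-labelled cells were P4ha2, at 0.56 (SE 0.15, adjusted p = 0.00713), Ndrg1, at 0.64 (SE 0.21, adjusted p = 0.0241), and Pfkp, at 0.22 (SE 0.084, adjusted p = 0.042). The Pfkp call was lost without any 1 of 8 libraries, with adjusted p up to 0.159. Ndrg1 had 209.8, 150.0 and 109 CPM in treated KO-labelled and 96.5, 98.5 and 106 CPM in treated WT libraries. KO-labelled library 2 was the highest and number 5 lay just above the WT range, and the call was lost without any 1 of 3 libraries. Leaving out KO-labelled curdlan library 2 or WT curdlan library 1 or 2 left 1 member higher. Scaled by library size alone, which shifted the median of all genes by -0.245, 0 members were higher and 24 lower, higher calls made up 23.7% rather than 48.0% of all calls over all genes, and Pfkp turned to -0.022. In the authors' deposited table for this contrast the log2 fold changes were -0.92 for Aldoc, -0.94 for Egln3, -0.82 for Pdk1 and 0.54 for P4ha2. That authors' deposited table gives Hif1a as 0.47 with an adjusted p of 0.0292, where the test used here gave 0.49 (SE 0.21, adjusted p = 0.0732), and it gives Pfkp an adjusted p of 0.104 and Ldha one of 0.0842.

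Isoenzymes of a step moved differently, and the make-up of single steps differed between the groups. Hk2 made up 66.8% ± 2.8 and 64.8% ± 1.5 of summed hexokinase CPM per kilobase in KO-labelled cells with and without curdlan, and 64.7% ± 0.2 and 44.9% ± 2.7 in WT cells (SD, n = 3 each). Hk3 made up 24.3% ± 2.4 and 24.4% ± 2 in KO-labelled cells, and 22.7% ± 0.66 and 40.5% ± 3.2 in WT cells. Hk3 exceeded Hk2 in 1 of the 3 unstimulated WT libraries, and Hk2 exceeded Hk3 in every library of the other 3 groups. Pfkfb3 made up 76.4% ± 4.3 and 73.9% ± 3.3 of the Pfkfb3 and Pfkfb4 sum in KO-labelled cells with and without curdlan, and 70% ± 1.8 and 59.3% ± 2.2 in WT cells. Pfkp held 64.5% ± 4.3 and 53.3% ± 5.1 of phosphofructokinase in KO-labelled cells, and 58.7% ± 1.5 and 61% ± 2.2 in WT cells.

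**Figure D4:**
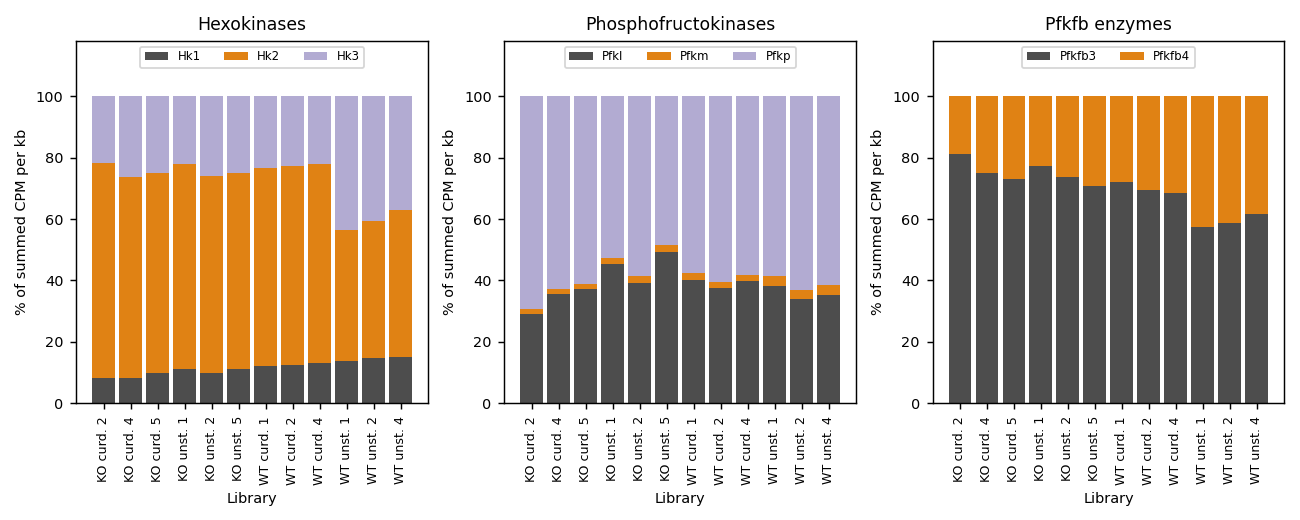
Share of each isoenzyme in the summed CPM per kilobase of its step, in percent, in each of the 12 libraries (curd., with curdlan; unst., unstimulated), KO-labelled libraries left of WT libraries in each panel. The Hk2 share was 42.4% to 47.8% in the 3 unstimulated WT libraries and 63.6% to 70.1% in the other 9.

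Several enzyme genes have near-identical copies, mostly pseudogenes, that can take their reads. Gapdh held 30.0% to 31.6% of the reads of Gapdh and 54 copies in the count table, Eno1 55.9% to 57.8% with its 2 copies, Pgk1 63.6% to 69.3% and Pgam1 74.4% to 82.6%. Part of the reads of these genes may therefore be counted elsewhere. With the copies added and the length of the gene itself kept, Gapdh stood at 499 and 517 CPM per kilobase in KO-labelled cells with and without curdlan, and at 667 and 609 in WT cells, and Pgk1 was at rank 2 with and rank 3 without curdlan in both genotypes. With the copies summed, a choice made after the data were seen, the calls of the other members with copies stayed as they were, and Pgk1 became lower in KO-labelled cells, at -0.28 with curdlan (adjusted p = 0.0424) and -0.29 without it (adjusted p = 0.041). The kit did not mark strand, and exons shared with other genes made up 26.4% of Ankrd37, 22.3% of Bnip3, 15.3% of Pkm, 11.5% of Gpi1 and 10.7% of Pfkm, so reads there cannot be assigned to one gene.

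Neighbouring pathways were read from lists chosen with results of these data known. Of 24 other hypoxia pathway genes tested, 5 rose and 5 fell with curdlan in KO-labelled cells, and 11 rose and 1 fell in WT cells. Over all genes tested the shares were 14.0% higher and 14.6% lower in KO-labelled cells, and 11.4% higher and 8.40% lower in WT cells. Hilpda, a lipid droplet protein induced by low oxygen, averaged 349 and 119.7 CPM in KO-labelled cells with and without curdlan, and 294 and 69.4 CPM in WT cells. It rose by 1.54 (SE 0.24, adjusted p = 0.000586) in KO-labelled cells and by 2.08 (SE 0.24, adjusted p = 9.92e-05) in WT cells. Adm, the vasodilator adrenomedullin, had 4.65, 5.12 and 3.9 CPM in treated and 13.3, 8.16 and 9.1 CPM in unstimulated KO-labelled libraries, and 5.31, 4.71 and 3.76 CPM in treated and 2.94, 2.18 and 2.44 CPM in unstimulated WT libraries. Adm fell in KO-labelled cells, at -1.17 (SE 0.19, adjusted p = 0.000977), and its response differed from that of WT cells by -2.03 (SE 0.28, adjusted p = 0.0046). Ddit4, an inhibitor of mTORC1, fell in KO-labelled cells, at -1.17 (SE 0.19, adjusted p = 0.000795), and was at 0.14 in WT cells. With curdlan 4 of the 24 were higher and 5 lower in KO-labelled than in WT cells, both below the 24.7% and 26.8% of all genes tested. Without curdlan 13 were higher and 3 lower, where 21.1% of all genes were higher and 23.3% lower, with Adm at 2.01 and Vegfa, the vascular growth factor, at 1.51 (SE 0.28, adjusted p = 0.000904).

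Most citric acid cycle genes were lower in KO-labelled cells. Of 18 such genes 1 was higher and 13 were lower in KO-labelled than in WT cells with curdlan, and 0 were higher and 16 lower without it (0 higher and 17 lower at an unadjusted p, 0 and 15 by DESeq2), where 26.8% and 23.3% of all genes tested were lower with and without curdlan. Idh3a, a subunit of isocitrate dehydrogenase, averaged 34.7 and 40.9 CPM in KO-labelled cells with and without curdlan, and 56.8 and 66.0 CPM in WT cells. The Idh3a difference was -0.71 (SE 0.089, adjusted p = 4.16e-05) with curdlan and -0.69 (SE 0.088, adjusted p = 5.24e-05) without. Fh1, fumarase, was at -0.65 (SE 0.071, adjusted p = 1.42e-05) without curdlan. Curdlan lowered 5 of the 18 in KO-labelled cells and 3 in WT cells, where 14.6% and 8.40% of all genes tested were lower. Of 13 genes of pyruvate entry 3 were higher and 4 lower in KO-labelled cells with curdlan, and 3 were higher and 6 lower without it. Over all genes tested 24.7% were higher and 26.8% lower with curdlan, and 21.1% higher and 23.3% lower without it. Pdk3, a kinase that inhibits pyruvate dehydrogenase, was higher in KO-labelled cells by 1.11 (SE 0.073, adjusted p = 3.07e-07) with and 1.23 (SE 0.072, adjusted p = 1.21e-07) without curdlan. Of the kinases of the same family, Pdk4 was higher without curdlan, at 0.90, and Pdk2 was lower, at -0.54. Pcx, pyruvate carboxylase, was lower, at -1.99 (SE 0.18, adjusted p = 3.94e-06) with and -1.18 (SE 0.17, adjusted p = 0.000149) without. Of 9 pentose phosphate genes 1 was higher and 4 were lower in KO-labelled cells with curdlan, and 5 were lower without it. Of all genes tested, 24.7% were higher and 26.8% lower with curdlan, and 23.3% were lower without it. Tkt, transketolase, was among the lower pentose phosphate genes in both states, at -0.44 with and -0.50 without curdlan. Eno2, the enolase form known from neurons, was higher in KO-labelled cells by 1.51 (SE 0.15, adjusted p = 6.57e-06) with and 2.36 (SE 0.15, adjusted p = 2.49e-07) without curdlan, against the lower Eno1. Of 20 kinases and factors above glycolysis, 3 rose and 2 fell with curdlan in KO-labelled cells and 5 rose and 1 fell in WT cells. The counts in KO-labelled cells lie near the 14.0% and 14.6% of all genes tested. In WT cells 11.4% of all genes tested rose and 8.40% fell. Myc, a factor that drives growth and glycolytic genes, rose by 0.55 (SE 0.13, adjusted p = 0.00672) in KO-labelled cells and by 0.62 (SE 0.12, adjusted p = 0.00357) in WT cells.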

How the data were processed

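The deposited table gives raw counts, as whole reads for every gene in each of 12 libraries, per the file headers. The kit was an unstranded one, per the labels' protocols. The submitters' processing notes name featureCounts 1.4.6, TopHat2 2.4.2a, DESeq2 1.8.2, FastQC 0.11.1 and SAMtools 1.2; for the build, annotation and counting settings: not given in the sources used here. For KO against WT with curdlan the authors' deposited table holds log2 fold changes and adjusted p-values, per the file headers. Of that table and an interaction table, 24 per-library columns were not used. That table numbers the WT curdlan columns 4, 1 and 2 where identical columns of the count table are 1, 2 and 4; the count table's numbers were used.

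Genes passing filterByExpr by group were scaled by TMM and compared by the two-sided quasi-likelihood F-test of edgeR 4.0.16 (R 4.3.3) in 1 fit of 12 libraries with 4 group means and 5 contrasts, with Benjamini-Hochberg adjustment and a threshold of 0.05. The script was tested on simulated data. CPM uses effective library sizes; SE is the fold change over the root of F. Merged exon lengths, overlaps and copies (at least 95% identity over 200 bases) come from GENCODE M21. Promoter windows are RefSeq's.

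Named genes are all 33 members, Vav1, Vav2 and Vav3, and, per pathway list and comparison, up to 2 higher and 2 lower genes by size among calls. One gene that this rule names is not reported here. Slc2a3 in WT cells and similar companion values of such genes are given for comparison. The members, lists and roles were chosen with earlier results of these data known. Replicates differed by more than counting noise (chi-square per degree of freedom 9.92 to 84.1) and none were merged. The numbers in the library names were taken to pair the libraries of a genotype. Deviations of same-numbered libraries from their group means correlated at 0.55, 0.40 and 0.20 in WT and 0.37 and 0.71 in KO-labelled cells, across genes. For differently numbered libraries the correlations were -0.45 to 0.12 in WT and -0.62 to 0.36 in KO-labelled cells. The KO-labelled pair numbered 2 was thus hardly set apart. Across genotypes the deviations of same-numbered libraries did not correlate (-0.25 to 0.12). Alternatives were DESeq2 1.42.0, other size factors, no filter, the 2 groups alone, the replicate block, copies summed and leaving out each library.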

Additional observations from a re-analysis of the deposited data

Results flagged for a closer look

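For 11 members the curdlan response differed between the genotypes by the test of the difference itself (edgeR, Benjamini-Hochberg over all genes tested), each with a smaller response in KO-labelled cells. In log2 units, KO-labelled minus WT, the difference was -1.32 for Ero1l, -1.24 for Hk2, -1.20 for Egln3, -1.03 for P4ha2, -0.95 for Slc16a3, -0.90 for Slc2a1, -0.85 for Hk1, -0.79 for both Pfkl and Pfkfb3, -0.74 for Egln1 and -0.61 for P4ha1. All of these members but Hk1 and Egln3 were also higher in unstimulated KO-labelled than in unstimulated WT cells, the baselines of the responses. With curdlan Hk1, Egln1 and Egln3 were lower in KO-labelled than in WT cells and P4ha2 was higher. The test of the difference between responses also picked out 9 genes of the neighbouring pathways. The difference, KO-labelled minus WT, was negative for Adm (-2.03), Ddit4 (-1.30), Car12 (-1.23), Pgm2 (-1.05), Kdm4b (-1.05), Eno2 (-0.85) and Kdm3a (-0.56). For Adm, Ddit4 and Pgm2 the change was negative in KO-labelled cells, at -1.17, -1.17 and -0.61, and positive in WT cells, at 0.86, 0.14 and 0.44. The difference was positive for Plin2 (0.69) and Prps1 (0.38). These calls were lost without any 1 of 10 libraries for Prps1, 9 for Car12, 7 for Eno2 and 2 for Ddit4, with adjusted p up to 0.12, and the Car12 difference was -0.98 with the replicate block (adjusted p = 0.0783). Plin2, a coat protein of lipid droplets, was at 0.50 in KO-labelled cells and -0.20 in WT cells.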

How the results depend on the processing

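With the replicate block the members higher with curdlan in WT cells numbered 26 against 17, and those lower in KO-labelled cells 3 against 0. The smaller responses in KO-labelled cells numbered 17 against 11, and the members lower in unstimulated KO-labelled than in WT cells 11 against 7. Between genotypes the numbers do not pair the libraries, and in KO-labelled cells only numbers 2 and 5 occur both with and without curdlan. With the block 6 pathway genes lost a call: Gapdhs and Pcx with curdlan in KO-labelled cells, Car12 in the difference between responses, Fbp1 between genotypes without curdlan, and Dlst and Prps1 with it; no other call named was lost by it. With library size alone, 1 member was lower with curdlan in WT cells and 10 in KO-labelled cells, 11 members were lower in unstimulated KO-labelled than in WT cells, and with curdlan 0 were higher and 24 lower. In that last contrast Pfkp turned to -0.022, Dlst to -0.033 and Prps1 to -0.081; that scaling leaves out the TMM factors by construction. Leaving out 1 library gave 3 to 6 members higher and 0 to 2 lower in KO-labelled cells, 14 to 20 higher in WT cells, and 5 to 12 smaller responses. Between genotypes it gave 9 to 13 higher and 3 to 9 lower without curdlan, and 1 to 4 higher and 11 to 17 lower with it. DESeq2, RLE size factors, no filter on low counts, the 2 groups alone and summed copies (the last chosen after seeing the data) kept each count of members within 1.5 times. Replicates differed by more than counting noise, so spread between libraries rather than depth limits the precision.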

Other observations

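Of 22 other glucose transporter and glycolysis genes tested, 2 rose and 7 fell with curdlan in KO-labelled cells, and 2 rose and 2 fell in WT cells. Over all genes tested 14.0% rose and 14.6% fell in KO-labelled cells, and 11.4% rose and 8.40% fell in WT cells. In WT cells Eno2 (0.88) and Slc2a6 rose, and Bpgm (-0.456) and Adpgk (-0.345) fell. The Adpgk call was lost without any 1 of 5 libraries. Of the other glucose transporters, Slc2a3 was lower with curdlan in KO-labelled cells and Slc2a6 was higher in both genotypes. Slc2a3, the transporter GLUT3, had 50.7, 43.0 and 78.9 CPM in treated and 93.6, 79.9 and 125 CPM in unstimulated KO-labelled libraries, and 42.9, 48.5 and 48.2 CPM in treated and 46.1, 57.5 and 70.9 CPM in unstimulated WT libraries. It fell with curdlan in KO-labelled cells, at -0.79 (SE 0.22, adjusted p = 0.0191), and was at -0.32 (SE 0.22, adjusted p = 0.335) in WT cells. Slc2a6 rose in both genotypes, by 0.37 (SE 0.099, adjusted p = 0.016) in KO-labelled and 0.81 (SE 0.1, adjusted p = 0.000142) in WT cells. The KO-labelled calls were lost without any 1 of 2 libraries for Slc2a3 and 3 for Slc2a6, with adjusted p up to 0.0733. The demethylase Kdm3a, a known hypoxia target, averaged 175 and 150.2 CPM in KO-labelled cells with and without curdlan, and 156 and 90.6 CPM in WT cells.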
